A study of Mus musculus with 14 samples.

Results

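Long noncoding RNAs (lncRNAs) that are retained in the nucleus, imprinted, or transcribed as hosts of small RNAs were chosen by gene symbol: *Malat1*, *Neat1*, *H19*, *Meg3*, *Rian*, *Mirg*, *Kcnq1ot1*, *Airn*, *Pvt1* and *Dleu2*. Of these 10 genes, 7 are among the 20550 genes listed for lactating mammary tissue. *Malat1*, *Neat1* and *Kcnq1ot1* are not listed and were not analysed here. Total RNA was isolated from the mammary glands of 2 mice on day 10 of lactation (L10). Both mice were wt/Wap-Tbrg4 heterozygotes (WT_wTbrg4 in the labels), which carry a wt allele and an allele in which a CRISPR/Cas9 deletion fused the first exons of *Wap* and *Tbrg4*, so that the *Wap* super-enhancer and promoter lie before *Tbrg4*. The founders were made in C57BL/6 zygotes, and the age of the mice and the number of founder lines are not given in the sources used here. No mouse without the fusion allele was measured by the RNA-seq used here, so the values describe levels in this genotype and no test between groups was possible. The samples were bulk tissue, so fewer cells of a type and less RNA per cell cannot be told apart.

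Many lncRNAs of this kind act in the nucleus. *Airn* and *Kcnq1ot1* are transcribed from the paternal chromosome and silence neighboring genes in cis, *H19* and the *Meg3*, *Rian* and *Mirg* series are transcribed from the maternal chromosome, *Malat1* is a component of nuclear speckles, and *Neat1* is the scaffold of paraspeckles. *H19*, *Meg3*, *Rian*, *Mirg* and *Dleu2* also contain microRNAs (miRNAs) within their transcripts, and *Rian* contains small nucleolar RNAs. *Pvt1* lies next to *Myc*, which encodes a transcription factor for cell growth. Unspliced RNA of such genes stays near its site of transcription, and total RNA-seq records it as signal on introns.

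The embedded miRNAs were located first, because their place in the host decides whether the exon or the intron signal reads the RNA around them. RefSeq on GRCm38.p6 places 34 mature miRNAs on the same strand inside 5 of the members, 26 of them in introns, 7 in exons and 1 across an exon boundary. They have 32 different seeds (bases 2 to 8), and 2 seeds are shared by a pair each. The pair in *Dleu2* lies in an intron on chromosome 14, from 61631936 to 61631957 and from 61632075 to 61632096 on the minus strand, and the pair in *Mirg* lies in introns on chromosome 12. The *H19* pair comes from both arms of an exonic hairpin on chromosome 7 and does not share a seed. The sequences are given 5′ to 3′ with the seed in capitals.
mmu-miR-15a-5p in *Dleu2*: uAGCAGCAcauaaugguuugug
mmu-miR-16-5p in *Dleu2*: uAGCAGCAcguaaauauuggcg
mmu-miR-453 in *Mirg*: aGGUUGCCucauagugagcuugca
mmu-miR-496a-5p in *Mirg*: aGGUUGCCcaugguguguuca
mmu-miR-675-5p in *H19*: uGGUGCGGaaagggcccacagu
mmu-miR-675-3p in *H19*: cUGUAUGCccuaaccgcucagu
The *Dleu2* pair shares 1 seed and the *Mirg* pair another. The deposited values measure the host genes, and mature miRNAs were not measured. GENCODE M21 additionally places 13 small nucleolar RNA genes inside *Rian* and none inside the other members.

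The 3 members that are not listed have a feature in common that sets them apart from the other 7. RefSeq gives *Malat1* (6983 bp, chromosome 19, from 5795690 to 5802672), *Neat1* (20773 bp, chromosome 19, from 5824708 to 5845480) and *Kcnq1ot1* (83437 bp, chromosome 7, from 143213111 to 143296547) a single collapsed exon and no intron. All are on the minus strand. The 7 listed members have from 5 collapsed exons in *H19* to 21 in *Rian*. The same holds across the annotation, as 57 of 3970 RefSeq genes with 1 collapsed exon (1.44%) are listed, compared with 20385 of 22208 genes with more exons (91.8%). Among lncRNA genes the shares are 1.55% of 194 and 61.4% of 3123. No level is therefore given for these 3 RNAs.

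**Figure D1:**
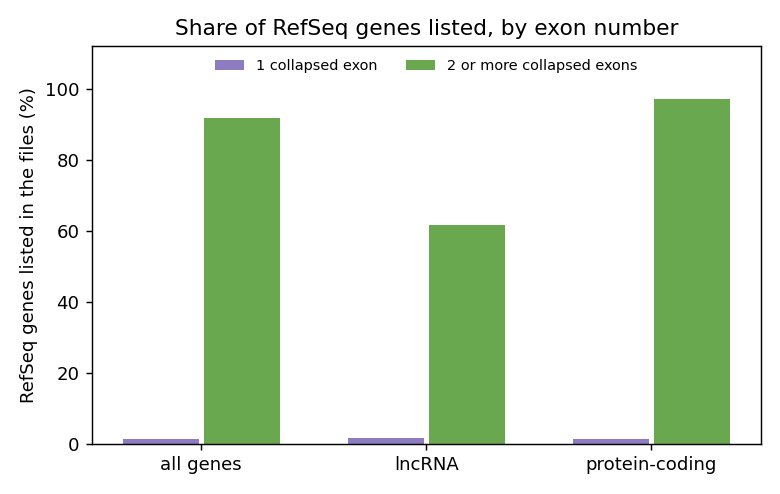
Share of curated RefSeq genes that are listed, in percent, for genes with 1 collapsed exon and genes with 2 or more, given for all genes, lncRNA genes and protein-coding genes. Single-exon genes are nearly absent in each class, at 1.44%, 1.55% and 1.40%, and *Malat1*, *Neat1* and *Kcnq1ot1* belong to this class.

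FPKM is the number of fragments scaled to the length of exon or intron and to a total for each library, so levels can be compared between genes within a mouse. The total used for these values is not given. The files hold 1 decimal and no read counts. The lowest values of features up to 600 bp fall on steps, which places the worth of 1 counted fragment at 101 FPKM × bp in replicate 1 and 197 FPKM × bp in replicate 2. With RefSeq lengths, 81.7% of 115 and 85.9% of 99 such values lay within 0.2 of a whole fragment. The steps imply about 11900000 and 11300000 exon fragments in the 2 mice. A gene of equal FPKM was nevertheless covered by 1.95 times as many fragments in replicate 1 as in replicate 2. The scaling therefore did not follow these estimated exon fragment numbers, and differences between the mice depend on it. Fragment numbers given for single genes below are estimates from these steps, and the intervals are exact Poisson 95% intervals that also span the rounding. They cover counting error only.

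The 7 listed members were expressed at low levels. Over their exons all 7 together summed to 9.9 FPKM (replicate 1) and 8.2 FPKM (replicate 2), compared with 1.09e+05 and 4.82e+05 for *Csn2* (β-casein) alone. An average of 1 FPKM or more over exons was reached by 3 of the 7 (*Dleu2*, *Airn* and *Pvt1*), while 4 stayed below. Across the listed genes 48.0% reached this level, compared with 7.23% of the 1922 listed lncRNA genes, whose median was 0. As 1323 of these lncRNA genes were listed at 0 in both mice, any signal ranks high among them. The members lay from percentile 77.2 for *Mirg*, which had 2 to 3 fragments in replicate 1 and 0 in replicate 2, to percentile 96.9 for *Dleu2*. The order of the means was *Dleu2*, *Airn*, *Pvt1*, *Rian*, *H19*, *Meg3* and *Mirg*. *Dleu2* and *Airn* did not differ beyond the spread between the mice, and both were above the other 5 members in both mice. *Pvt1*, *Rian* and *H19* did not differ beyond that spread, and their order changed from mouse to mouse.

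**Figure D2:**
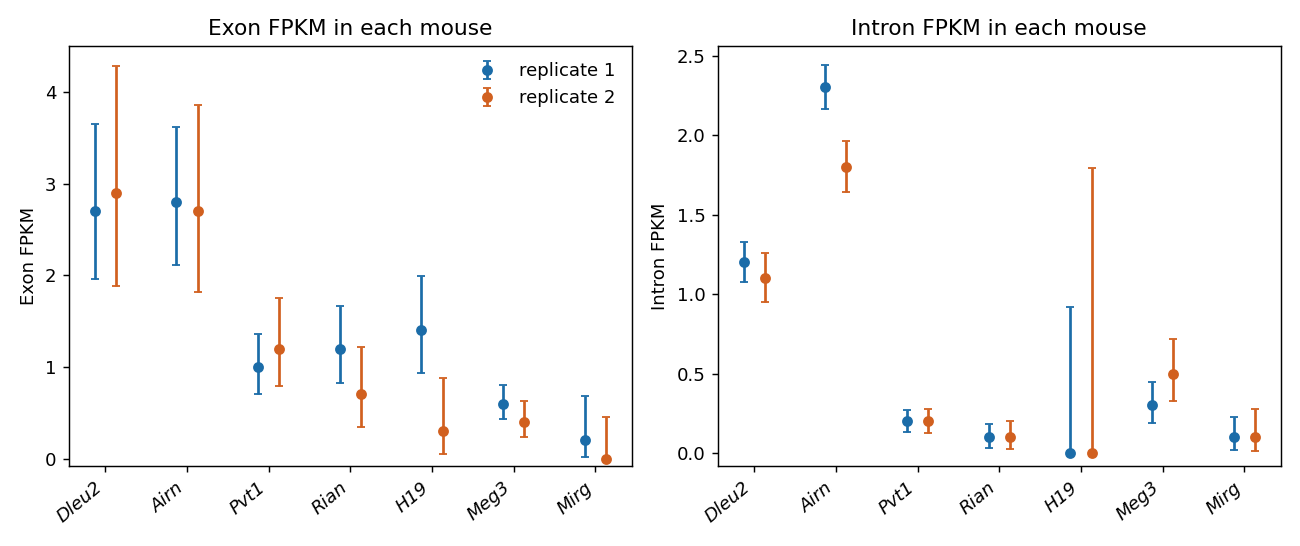
Exon FPKM (left) and intron FPKM (right) of the 7 listed lncRNAs in each of the 2 mice, with estimated Poisson 95% intervals for counting error, or the level of 3 fragments as the upper limit where a gene is listed at 0. The mice separate for *H19* exons (1.4 and 0.3) and for *Airn* introns (2.3 and 1.8), and the intervals overlap for the other values.

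*Airn* silences *Igf2r*, which encodes the receptor that clears insulin-like growth factor 2, together with *Slc22a2* and *Slc22a3* in placenta, which encode organic cation transporters. It lies on chromosome 17 from 12741311 to 12859884 on the plus strand, with 2188 bp of exons and 116386 bp of introns. Exons were at 2.8 FPKM (replicate 1) and 2.7 FPKM (replicate 2) and averaged 2.75 ± 0.0707 (SD, n = 2). Introns were at 2.3 and 1.8 FPKM and averaged 2.05 ± 0.354 (SD, n = 2), which placed *Airn* at rank 435 among 20515 genes with a usable symbol. Introns were thus covered nearly as densely as exons, and the bulk of its fragments was intronic, with about 2650 intron fragments compared with about 61 exon fragments in replicate 1. The intervals for the introns, from 2.16 to 2.44 and from 1.65 to 1.96, did not overlap, so that replicate 1 was higher by more than counting error.

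The signal of *Airn* cannot be fully separated from its neighbors. *Igf2r* on the minus strand overlaps 23.9% of the *Airn* span, *Mas1* on the minus strand overlaps 17.7%, and the strand setting of the read counting is not given. *Igf2r* had an exon FPKM of 55.5 and 43.2 and an intron FPKM of 0.8 and 0.5. The introns of *Airn* were therefore above those of *Igf2r* in both mice, although the exons of *Igf2r* were far higher. *Mas1*, which encodes an angiotensin peptide receptor, was at 0 and 0.1 in exons. *Slc22a3* was at 0.4 and 0.7, and *Slc22a2* was listed at 0 in both mice.

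*H19* is the maternally expressed RNA of the *Igf2* domain and contains the exonic miR-675. It lies on chromosome 7 from 142575530 to 142578146 on the minus strand, with 2288 bp of exons and only 329 bp of introns. Exon levels of 1.4 FPKM (replicate 1) and 0.3 FPKM (replicate 2) were measured, averaging 0.85 ± 0.778 (SD, n = 2). These values stand for 31 to 32 and for 3 to 4 fragments. Their intervals, from 0.930 to 1.99 and from 0.0533 to 0.882, did not overlap. *H19* had the largest exon difference between the mice of the listed members before correction for GC content. On the log2(FPKM + 1) scale the ratio of replicate 2 to replicate 1 was -0.88, which understates the change of such a low gene. With a pseudocount of 0.1 it was -1.91, compared with -0.70 for *Rian*. The intron FPKM of *H19* was listed at 0 in both mice. Because its introns are short, 3 fragments would amount to 0.921 and 1.80 FPKM. Intron signal below these levels could therefore have been missed at this depth.

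Other measures moved with the difference in *H19*. Its exons have a GC content of 55.9%, the highest of the 10 genes, and GC-rich genes were generally lower in replicate 2. After a lowess correction for GC content its log2 ratio was -0.45, compared with -0.58 for *Rian*. The correction was fitted to genes that averaged 1 FPKM or more, and both genes lie below that level. There the pseudocount shrinks the ratio but not the amount subtracted, so that *Kcnq1* (0.2 and 0.2) was at 0.52 after the correction. The corrected order of *H19* and *Rian* therefore cannot be read as a result. The 6 markers of myoepithelium summed to 113.5 FPKM (replicate 1) and 72.6 FPKM (replicate 2), and the 6 of macrophages to 98.1 and 56.7. Sums for fibroblasts and endothelium were also lower in replicate 2, and those for the other cell types were higher. For markers of 1 FPKM or more, the median log2 ratio was -0.76 in myoepithelium and -0.54 in macrophages. After the GC correction both were -0.23. Of the myoepithelial markers, *Krt5* (6.6 and 3.5), *Krt14* (17.9 and 5.4) and *Myh11* (69.2 and 38.8) were lower in replicate 2. *Oxtr* (18.9 and 23.6) and *Trp63* (0.9 and 1.3) were higher, and *Acta2* is listed at 0 in both mice. The part of GC content and of these cells in the difference was not tested.

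The genes around *H19* on distal chromosome 7 mostly had small values. Some broadly expressed genes such as *Rbm14* are also listed at 0 in both mice, so a value at or near 0 in these files may not mean low expression. *Igf2*, the growth factor gene that shares enhancers with *H19*, had an exon FPKM of 0.3 and 0.4. *Mrpl23*, which encodes a mitochondrial ribosomal protein, had 0.2 and 0. In the neighboring *Kcnq1* domain, which *Kcnq1ot1* silences, *Cdkn1c* (a cell cycle inhibitor) had 0.6 and 0.8, *Kcnq1* (a potassium channel) had 0.2 and 0.2, and *Phlda2* was listed at 0 in both mice. *Slc22a18* had 1.2 and 0.2. *Tssc4*, at the edge of this domain, was the highest of the group with 10 and 2.4, a log2 ratio of -1.69. Its exons have a GC content of 59.9%, and after the GC correction the log2 ratio was -0.95, within 2-fold. *Slc22a18* and *Tssc4* were lower in replicate 2, as *H19* was, while *Igf2* and *Cdkn1c* were not. The whole of *Kcnq1ot1* lies inside *Kcnq1* on the opposite strand, and the intron FPKM of *Kcnq1* was 0 in both mice.

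*Meg3*, *Rian* and *Mirg* follow each other on chromosome 12 on the plus strand and are often regarded as a continuous maternal transcript of the *Dlk1*-*Dio3* domain. *Meg3*, a lncRNA with growth-suppressing activity, spans 109540996 to 109571729. *Rian* spans 109603945 to 109661716, and *Mirg* spans 109734981 to 109749458. Exons of *Meg3* were at 0.6 FPKM (replicate 1) and 0.4 FPKM (replicate 2). Those of *Rian* were at 1.2 and 0.7, and those of *Mirg* were at 0.2 and listed at 0, where the first value stands for 2 to 3 fragments. All of them were lower in replicate 2, with log2 ratios of -0.19, -0.37 and -0.26, but their intervals overlapped between the mice. Overlap of such intervals does not show that a difference lies within counting error, and this was not tested. After the correction for GC content, *Meg3* and *Rian* stayed lower in replicate 2 (-0.15 and -0.58), and *Mirg* was at 0.06. These corrected values have the limit given above for genes below 1 FPKM.

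The order of the 3 RNAs by intron signal differed from that by exon signal, at low values. *Meg3* introns were at 0.3 FPKM (replicate 1) and 0.5 FPKM (replicate 2), compared with 0.6 and 0.4 over its exons. The intervals of its introns and exons overlapped in both mice. *Rian* and *Mirg* were at 0.1 in both mice, where the value is as low as the files can show. The ratio of mean intron to mean exon FPKM was 0.8 for *Meg3* and 0.105 for *Rian*, although they are neighbors. For *Rian*, rounding alone leaves a range from 0.05 to 0.167 for this ratio. *Dlk1*, the paternally expressed protein-coding gene of the domain, had an exon FPKM of 0.1 and 0, and *Rtl1* and *Dio3* are not listed.

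The reference start site of *Rian* carries a match to TTCNNNGAA, the sequence that STAT5 recognizes, and the match is shown because STAT5 is the factor profiled in this study. RefSeq windows from 250 bp before to 50 bp after the start site are given for 7 of the 10 members, with 8 windows in all, and 1 of the 8 contains the palindromic sequence. It lies at chr12:109603899-109603907 on the plus strand of GRCm38.p6. It is shown in capitals with its flanks.
*Rian* upstream region: tttgcagattTTCCCAGAAtggaactaac
Of all 32851 such windows, 8.30% contain a match, so the sequence is not rare. A match is a description of these letters and not a binding site. STAT5 ChIP-seq was not analysed here.

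*Dleu2* is the host of miR-15a and miR-16, which restrain the cell cycle. It lies on chromosome 14 from 61602836 to 61682373 on the minus strand, with 1694 bp of exons and 77844 bp of introns. Exons were at 2.7 FPKM (replicate 1) and 2.9 FPKM (replicate 2) and averaged 2.8 ± 0.141 (SD, n = 2). Introns were at 1.2 and 1.1 FPKM and averaged 1.15 ± 0.0707 (SD, n = 2), at rank 1175. The introns, which hold both miRNAs shown above, were represented by about 925 and 435 fragments. *Dleu2* was thus the member with the highest exon level and the next highest intron level after *Airn*, and both of its values were nearly equal in the 2 mice. Part of its exon signal cannot be told apart from that of a neighbor without strand, since 57.3% of its exon bases lie within the span of *Trim13*, a ubiquitin ligase gene on the opposite strand. *Trim13* had an exon FPKM of 1.5 and 3.5, and *Kcnrg*, a potassium channel regulator gene inside *Dleu2*, had 0.3 and 0.1. The values of *Dleu2* were thus closer together than those of *Trim13*.

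*Pvt1* lies on chromosome 15 from 62037986 to 62260215 on the plus strand and is the longest of the 10 genes. Exons were at 1.0 FPKM (replicate 1) and 1.2 FPKM (replicate 2) and averaged 1.1 ± 0.141 (SD, n = 2). Its intron FPKM was 0.2 in both mice, but over 217168 bp of introns this stands for about 430 and 220 fragments. Its neighbor *Myc* had an exon FPKM of 5.7 and 6.3 and an intron FPKM of 0.9 and 0.5, above those of *Pvt1* in both mice. On chromosome 19, *Frmd8* (5.6 and 2.9), which lies near *Malat1* and *Neat1*, was higher in replicate 1. Its exons have a GC content of 57.0%, and its log2 ratio of -0.76 was -0.23 after the GC correction.

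The ratio of intron to exon FPKM varied widely among the members. Across 9535 genes that averaged 1 FPKM or more over exons and had intron signal, the median ratio was 0.0652, and it was 0.2 in the 129 lncRNA genes among them. *Airn* had a ratio of 0.745 (percentile 99.4) and *Dleu2* a ratio of 0.411 (percentile 98.4). *Pvt1*, with 0.182, was at percentile 89.8, just under the 90th at 0.183, and rounding leaves a range from 0.130 to 0.238. By definition 10% of all genes lie above the 90th percentile, and 69 of the 129 lncRNA genes (53.5%) did, compared with 2 of the 3 members. A high ratio was therefore common among lncRNA genes. Among members with exon levels below 1, *Meg3* and *Mirg* had ratios of 0.8 and 1, where that of *Mirg* rests on very few fragments. *Rian* had a ratio of 0.105 (percentile 73.0), and *H19* had no intron signal.

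**Figure D3:**
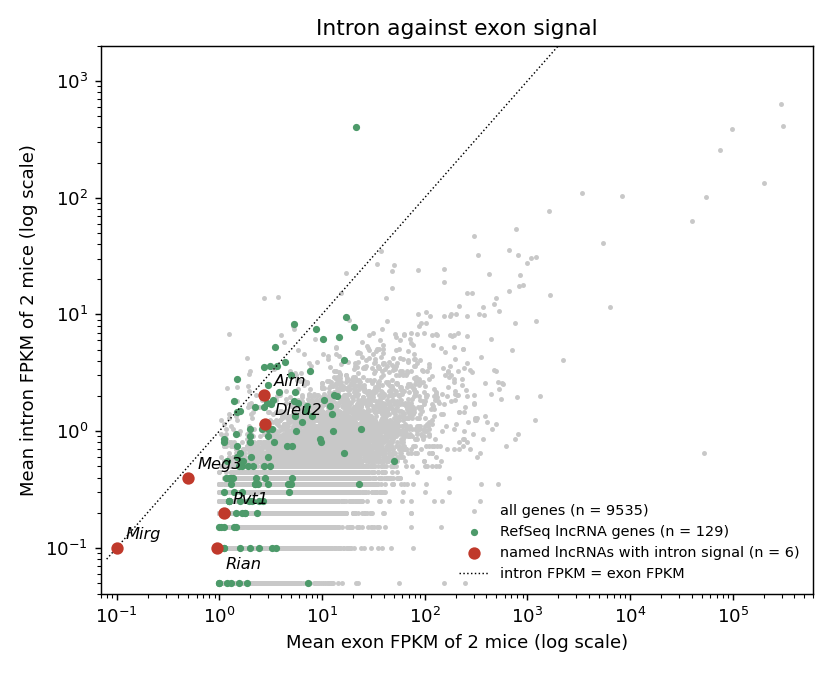
Mean intron FPKM against mean exon FPKM of the 2 mice, both on log scales, for 9535 genes (grey), 129 lncRNA genes among them (green) and the 6 named lncRNAs with intron signal (red, 3 of them below an exon FPKM of 1). *Airn*, *Meg3* and *Mirg* lie near the dotted line of equal signal, while *Pvt1* and *Rian* lie nearer to the bulk of the genes.

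Differences between the mice were expressed as log2(replicate 2 / replicate 1), and a gene was called apart beyond 2-fold. Of the 3 members that passed the filter on the exon average (1 FPKM or more), 0 were called, compared with 5.9% of 9845 genes (4.82% higher in replicate 1 and 1.08% higher in replicate 2). After the GC correction 0 of 3 were called, compared with 1.91% of genes (0.793% and 1.12% in the same order). With no filter 0 of the 7 were called, compared with 2.92% of genes (2.38% and 0.541%), but a pseudocount of 1 leaves little room for members below 1 FPKM. With a pseudocount of 0.1 and no filter 2 of the 7 were called (*H19* and *Mirg*, both higher in replicate 1), compared with 9.68% of 20515 genes. Their log2 ratios were 0.08 for *Dleu2*, 0.14 for *Pvt1* and -0.04 for *Airn*, with a median of 0.08, and the median of all genes tested was -0.08. For introns, 0 of the 2 members with a mean of at least 0.5 were called, compared with 5.9% of 4220 genes (3.53% higher in replicate 1 and 2.37% higher in replicate 2). With 1 value per mouse no test was made, and a count of 0 among so few genes says little. The directions depend on the scaling. When each mouse was rescaled to the same summed exon FPKM, of which milk protein genes hold a large part, the median log2 ratio of the genes tested moved by -0.83 to -0.90, and all 7 members were lower in replicate 2. The share of genes called was then 42.6% of 9845, with 0 of the 3 members called. The log2 ratios were then -0.67 for *Dleu2*, -0.38 for *Pvt1*, -0.77 for *Airn* and -1.18 for *H19*, so that *Dleu2* and *Pvt1* changed sign and *H19* stayed lowest. The log2 ratio of exons followed their GC content, with a Spearman correlation of -0.659 across 9839 genes that share the 2 libraries. *Rian* and *Dleu2* have the lowest GC content of the listed members (44.2% and 43.8%). *Rian* was lower in replicate 2, away from the trend, whereas *H19* lay on the same side as the trend.

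**Figure D4:**
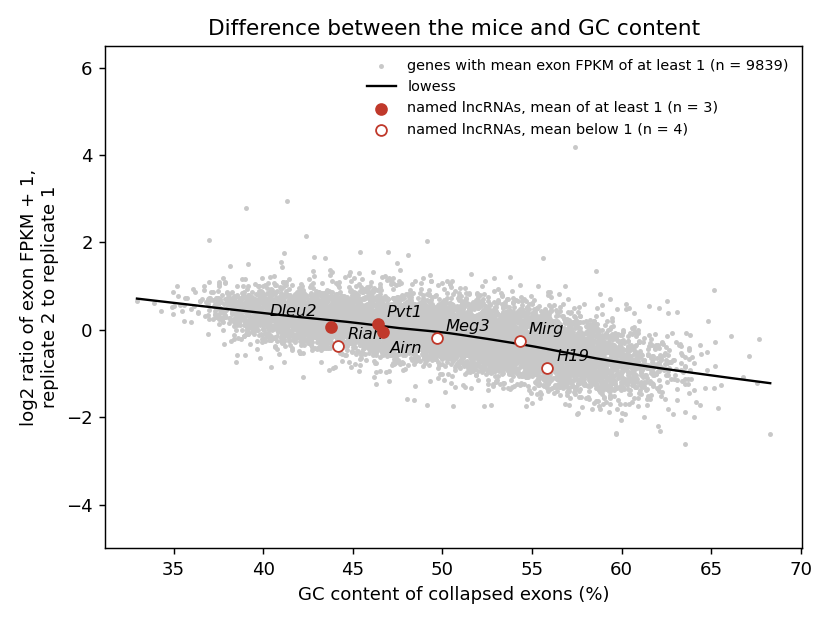
Log2 ratio of exon FPKM + 1 between the mice (replicate 2 to replicate 1) against the GC content of the exons, with a lowess line through 9839 genes (grey) and the 7 listed lncRNAs in red, filled where exons averaged 1 FPKM or more. The line falls with GC content, and *H19* (-0.88) and *Rian* (-0.37) lie below it.

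Proteins that work with these RNAs were measured in the same libraries, from lists chosen for their known roles. Of 12 paraspeckle proteins, 11 averaged 1 FPKM or more over exons and 0 differed more than 2-fold. *Hnrnpk* (25.8 and 31.2) and *Matr3* (24.6 and 22.5), both RNA-binding proteins, were the highest, and *Smarca4*, a chromatin remodeler, differed most (14.5 and 7.7). Of 12 genes of silencing complexes, 11 were at this level and 1 was more than 2-fold apart. *Trim28* (18.8 and 13.1) and *Ctcf* (13 and 12.6), which maintain imprints and insulate the *H19* domain, were the highest, and *Ehmt2*, the histone methyltransferase recruited by *Airn*, was at 16.5 and 5.3, a log2 ratio of -1.47 that was -0.66 after the GC correction. *Zfp57*, which binds imprinted control regions, was at 0.1 and 0.4. Of 12 genes for nuclear RNA processing and decay, 12 were at this level and 0 differed more than 2-fold. *Pabpn1* (16.3 and 12.9) and *Xrn2* (7.5 and 9.0) were the highest, and *Rpp30* differed most (1.7 and 3.7). *Drosha*, which cuts miRNA hairpins from hosts such as *Dleu2*, was at 2.0 and 2.1.

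Among 15 other imprinted genes, 13 are listed and 6 reached the same level, with 0 more than 2-fold apart. *Gnas* (40.6 and 42.5), which encodes a G protein subunit, and *H13* (13.1 and 10.0), which encodes a signal peptide peptidase, were above every one of the 7 lncRNAs. *Zim1* differed most (0.5 and 0.1). Of the 19 locus partners, 17 are listed, 6 were at this level, and 1, *Tssc4*, was more than 2-fold apart.

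The genes nearest to a member were found over 4 values, the exon and the intron level in each of the 2 mice. For *Dleu2* they were *Ankrd16* (a Euclidean distance of 0.141 on log2 scales), *2810001G20Rik* (0.287) and *Thtpa* (0.311). For *Airn* they were *4930412O13Rik* (0.429), *Sapcd2* (0.472) and *Mir22hg* (0.528), and 0 genes lay within 0.2. For *Pvt1*, *Tnfrsf14* had the same 4 values and 24 genes lay within 0.2.

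Cell type markers describe the tissue in which these levels were measured. All 9 markers of secretory epithelium averaged 1 FPKM or more, and they summed to 3.54e+05 FPKM (replicate 1) and 9.40e+05 FPKM (replicate 2). The sums in the 2 mice were 657.2 and 743.9 for 6 adipocyte markers, 172.8 and 165.8 for 6 fibroblast markers, and 53.3 and 46.5 for 6 endothelial markers. They were 113.5 and 72.6 for 6 myoepithelial markers, with *Acta2* listed at 0 in both mice, and 98.1 and 56.7 for 6 macrophage markers. For 5 plasma cell and B cell markers they were 456.7 and 600.6. The 3 listed T cell markers summed to 0.5 and 0.6, and *Trac* is not listed. Which of these cells contributed the lncRNAs was not tested.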

How the data were processed

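Total RNA-seq of L10 mammary tissue from 2 wt/Wap-Tbrg4 mice was used. The authors mapped stranded total RNA reads to mm10 with STAR, counted them on collapsed exons and on introns of UCSC known genes with HTSeq, and generated FPKM with DESeq2. The deposited FPKM have 1 decimal. Versions, the strand setting, the treatment of reads with several locations and the scaling total are not given in the sources used here. Genes without a usable symbol (35) were left out. Curated RefSeq transcripts of GRCm38.p6 (equal to mm10) gave positions, lengths, GC content and miRNAs, and 99.6% of the listed symbols matched. The authors' exon lengths may differ, so fragment numbers are estimates.

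Values are given per mouse and as mean ± SD. Ratios between the mice used pseudocounts of 1 for exons and 0.1 for introns, genes with a mean of at least 1 and 0.5, and a threshold of 2-fold. Lowess used 30% of the genes. The fragment step and the GC correction were tested on simulated data. The members and gene lists were chosen with earlier results of these data known. Named genes were the 10 members, the 3 genes nearest to each of the 3 highest members, the locus partners (1 of which is not reported here), and from each other list the 2 highest genes and the gene that differed most. Further genes (*Drosha*, *Zfp57*, single markers, and genes named for their introns) were named after their values were seen. Whether the mice were littermates is not given. ChIP-seq samples were not analysed here. The software was statsmodels 0.14.6 (lowess), scipy 1.17.1 (intervals), pandas 2.3.3 and matplotlib 3.10.9 in Python 3.11.15 with numpy 2.4.6.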

Additional observations from a re-analysis of the deposited data

How the results depend on the processing

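Of 125 alternatives for 34 values of the members, 95 stayed and 30 moved. A value stayed if it lay within the spread between the mice or within 0.1 on the log2 scale. Some of the 95 could not have moved, for reasons given below. Of the 30, 6 are intron levels under rescaling to a sum of 1000000, which is mostly a change of unit, and 9 are exon values under rescaling. No member that passed the filter in use was called under the alternatives set at the start. The log2 ratio of exons changed sign in 5 of 28 alternatives: *Airn* with centring (0.04), *Mirg* (0.06) and *Dleu2* (-0.14) with the GC correction, and *Pvt1* (-0.38) and *Dleu2* (-0.67) with rescaling. The 3 members that averaged 1 FPKM or more over exons became 2 with rescaling, 0 with a minimum of 10, and from 3 to 5 when either replicate was left out. Among the 3 members that passed the filter, 0 were beyond 2-fold under the alternatives set at the start. Below the filter, *H19* (-1.91) and *Mirg* (-1.58) passed 2-fold with a pseudocount of 0.1, as 2 of the 7 did with that pseudocount and no filter, an alternative chosen after seeing the data, and *H19* also did with rescaling (-1.18). The 581 genes of all genes that passed 2-fold became 1092 with a pseudocount of 0.1, 188 after the GC correction, 231 with a minimum of 10, 1986 with a pseudocount of 0.1 and no filter, and 4193 after rescaling each mouse, the last also chosen after seeing the data. The causes were not tested. The count of members above the 90th percentile of the intron to exon ratio could not be made without overlapping genes or with a minimum of 10, because no member was left. No paired analysis was possible because there is a single group of 2 mice. A mean of 2 mice cannot leave its own spread when either is dropped or when the geometric mean is taken. Centring the intron ratios subtracted a median of 0, and the lower intron minimum does not enter the ratio of a single gene. Those values therefore say nothing of how stable the results are. The depth limits exon values under 1 FPKM, which stood for at most 83 fragments in any member.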

Other observations

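Other lncRNAs of the same libraries covered a wide range of intron signal. *Tug1*, a nuclear lncRNA, had an exon FPKM of 13.5 in replicate 1 and 21.0 in replicate 2 and an intron FPKM of 7.7 and 11.3, so that its ratio of mean intron to mean exon FPKM was 0.551. *Lncpint*, a lncRNA induced by p53, had exon values of 5.2 and 3.5 and a ratio of 0.897. The miRNA host *Mir22hg* had exon values of 3.7 and 3.9 and a ratio of 0.566. These ratios lie above the 99th percentile of genes with intron signal (99.0, 99.6 and 99.1), beside *Airn*. *Xist*, which coats the inactive X chromosome, had the highest exon level of the 15 listed lncRNAs of this comparison, with 33.9 and 65.7, and a ratio of only 0.0110 (percentile 3.63). *Firre*, which is also nuclear, had exon values of 5.0 and 5.2 and a ratio of 0.0784. Of 19 chosen lncRNAs, 15 are listed, 5 averaged 1 FPKM or more over exons, and 0 of the 5 differed more than 2-fold between the mice.

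*Jarid2*, which encodes a cofactor of the Polycomb complex, had nearly equal exon FPKM in the 2 mice (5.7 and 5.0), whereas its introns were at 2.8 FPKM (replicate 1) and 12.1 FPKM (replicate 2). No explanation was tested for this value.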
